A study of Mus musculus with 16 samples.

Results

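The genes described here are interferon-stimulated genes, a set of 35 named genes that cells switch on when they sense interferon. They were taken by gene symbol from the deposited expression table of a mouse liver tumour series. Of the 35 genes, 34 had an annotated probe set among the 23279 named genes of the table, each with 1 probe set, and Ifi44 was not analysed here. The series measured RNA of whole tissue on 16 arrays from male mice aged 16 months. The tumour group held 8 hepatocellular carcinomas of 6 mice (121, 90, 124, 123, 93 and 81, with 3 tumours from mouse 121). These Axin1-deleted mice came from crossing Axin1 fl/fl animals with the Alfp-Cre line, which expresses Cre recombinase in embryonic hepatocytes. The adjacent group held non-tumoral liver of 5 deleted mice (121, 124, 123, 1931 and 81), and the control group held liver of 3 mice of the same age and sex without the deletion (10, 11 and 12). The labels do not say whether the controls carried the floxed allele or Cre. Axin1 is part of the complex that marks beta-catenin for destruction. Cells that never expressed Cre, and do not descend from cells that did, keep the gene in this cross. In bulk tissue, fewer cells of a type and less RNA per cell cannot be told apart.

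Type I interferons are released by cells that detect foreign or misplaced nucleic acids and act through the receptor Ifnar1 and Ifnar2, whereas interferon gamma comes mainly from lymphocytes and acts through Ifngr1 and Ifngr2. Jak kinases at the receptors then activate transcription factors. The complex ISGF3, which holds Stat2 and Irf9, binds the interferon-stimulated response element (ISRE) in promoters, and the gamma-activated site (GAS) is the element of the interferon gamma response. In liver, hepatocytes, Kupffer cells and endothelial cells all respond, and the products of these genes block steps of viral replication, tag proteins with Isg15 or sense nucleic acids.

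Among RefSeq promoter windows (GRCm38.p6, from 250 bases before to 50 after the annotated start), 25 of the 34 genes matched. The ISRE letters, GAAA and GAAA with any 2 bases between, were found on either strand in the windows of 16 of these 25 (64%), against 3.99% of the 27025 genes of the same table. The GAS letters, TTC and GAA with any 3 bases between, were found in 7 (28%), against 9.55%. Matches of 1 motif can overlap, as the 3 matches of Isg15 do, and a match is a description of letters and not a shown binding site. The stretches below are a selection from the 12 members with ISRE letters upstream of the annotated start used for the window. Gbp2 and Oas3 are among those not printed. Each stretch is printed 5′ to 3′ on the gene's strand with the ISRE letters in capitals.
Rsad2: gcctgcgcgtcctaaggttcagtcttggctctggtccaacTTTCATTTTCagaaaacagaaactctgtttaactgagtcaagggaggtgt
Isg15: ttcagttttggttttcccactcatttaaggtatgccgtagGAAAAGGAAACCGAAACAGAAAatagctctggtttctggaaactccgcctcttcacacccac
Ifit1: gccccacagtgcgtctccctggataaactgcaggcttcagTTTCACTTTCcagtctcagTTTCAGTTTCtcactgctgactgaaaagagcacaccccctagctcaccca
Ifit3: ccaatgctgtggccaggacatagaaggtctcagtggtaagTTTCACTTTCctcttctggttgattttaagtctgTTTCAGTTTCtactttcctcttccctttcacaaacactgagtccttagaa
Oas1a: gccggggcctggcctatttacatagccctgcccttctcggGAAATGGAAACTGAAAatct
Gbp3: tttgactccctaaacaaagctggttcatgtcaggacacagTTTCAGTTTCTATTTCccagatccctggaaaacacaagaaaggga
Irgm1: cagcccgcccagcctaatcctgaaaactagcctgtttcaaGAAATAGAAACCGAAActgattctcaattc
Stat2: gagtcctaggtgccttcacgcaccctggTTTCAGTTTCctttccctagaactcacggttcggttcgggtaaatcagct
They lie at chr12:26456523-26456612 (Rsad2, minus strand), chr4:156200835-156200936 (Isg15, minus strand), chr19:34640745-34640853 (Ifit1, plus strand), chr19:34583333-34583456 (Ifit3, plus strand), chr5:120907526-120907585 (Oas1a, minus strand), chr3:142559959-142560043 (Gbp3, plus strand), chr11:48871421-48871490 (Irgm1, minus strand) and chr10:128270248-128270325 (Stat2, plus strand). The start used for a window is not always the edge of the RefSeq gene. For Ifit3 the gene's span begins at 34583119, before the printed stretch. For Oas1a, on the minus strand, it begins at 120907544, within the printed ISRE letters. Several members are neighbours in the RefSeq annotation: Ifit1, Ifit2 and Ifit3 form a cluster, as do Oas1a, Oas2 and Oas3, and Oasl1 lies beside Oasl2, Mx1 near Mx2 and Gbp2 near Gbp3. Near-identical copies (Ifit3 and Ifit3b, Oas1a and Oas1g, the Trim30 genes) make the values of those probe sets uncertain, since no source used here gives the probe positions.

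The authors deposited expression on a log2 scale, and all differences here are differences of log2 values within a probe set, so that 1 unit is a 2-fold difference. Array medians over all probe sets ran from 4.37 to 4.50. Axin1 stood at 5.07 to 5.48 in the controls and at 3.90 to 4.81 on the 13 arrays of deleted mice. The 3 groups were fitted together in limma over all 23279 genes with the 3 tumours of mouse 121 averaged, and a gene was called at a Benjamini-Hochberg adjusted p under 0.05. The hepatocyte markers Alb, Ttr, Apoa1 and Tat stood at 9.97 or more on every array. Cyp2e1, a pericentral hepatocyte enzyme, was lowest in tumour 81 (8.17), tumour 123 (9.32) and the unnumbered tumour of mouse 121 (10.26). Control 10 and tumour 81 stood apart from the other arrays of their groups in the members themselves, so differences between tumours and adjacent liver are also given without tumour 81, and medians and counts against controls without control 10. Control 10 also had high mean levels of neutrophil and macrophage markers, given below.

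The highest levels of interferon-stimulated genes were found in 1 tumour (mouse 81) and 1 control liver (mouse 10), and not in a whole group. In limma's fit 0 of the 34 members were called in any of the 3 comparisons between tumours, adjacent liver and controls. Tumour 81 was the highest of the 16 arrays for 20 of the 34 members, against 8.48% of all genes, and control 10 for 10, against 6.59%. The other 4 highest values were those of adjacent liver 121 (Irf1 and Iigp1) and tumour number 2 of mouse 121 (Ifih1 and Bst2). Control 12 was the lowest array for 15 members, against 5.75% of all genes, and tumour 90 for 5, against 10.8%.

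**Figure D1:**
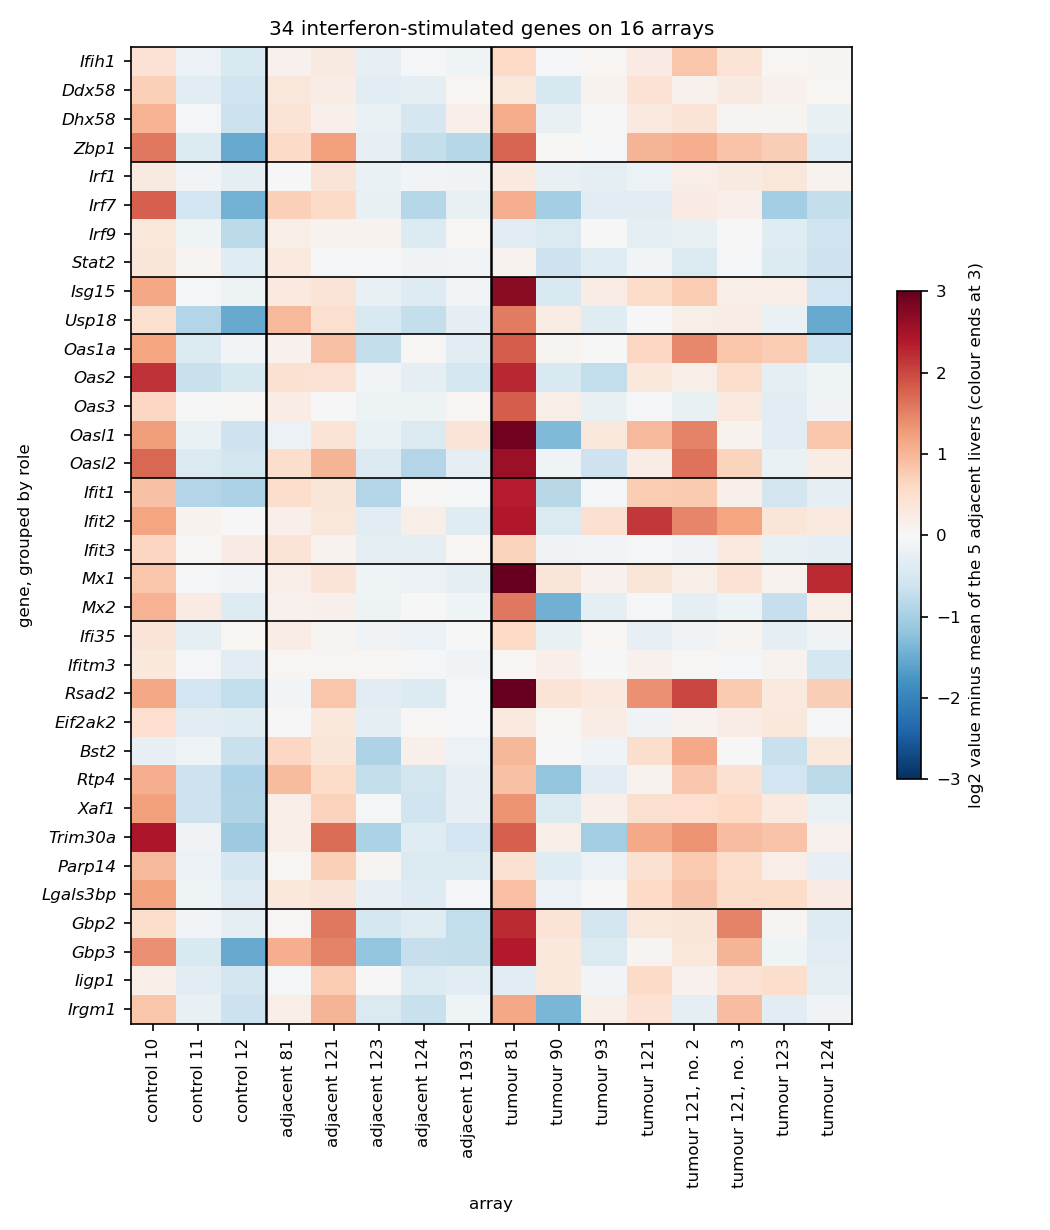
Log2 value of each of the 34 interferon-stimulated genes (vertical axis, grouped by role) on each of the 16 arrays (horizontal axis, grouped as control, adjacent liver and tumour), as the difference from the mean of the 5 adjacent livers; red is higher, blue is lower, and the colour ends at 3 in either direction. The columns of tumour 81 and control 10 are red over most genes, the column of adjacent liver 121 is red over the gamma-responsive GTPases, and the row of Stat2 is pale or blue in the tumours.

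Relative to the mean of the 5 adjacent livers, the median difference over the members was 1.24 in tumour 81 and 0.93 in control 10. There 32 and 33 members were higher, beside 47.9% and 45.4% of all genes. The 3 tumours of mouse 121 stood at 0.33, 0.36 and 0.36, close to 0.39 in the adjacent liver of the same mouse. The other tumours lay at 0.07 (mouse 123), -0.03 (93), -0.15 (124) and -0.20 (90), and the other controls at -0.18 (11) and -0.53 (12). Over all genes the medians differed little between arrays, within a range of -0.06 to 0.02 from the control mean, as RMA equalises the arrays.

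**Figure D2:**
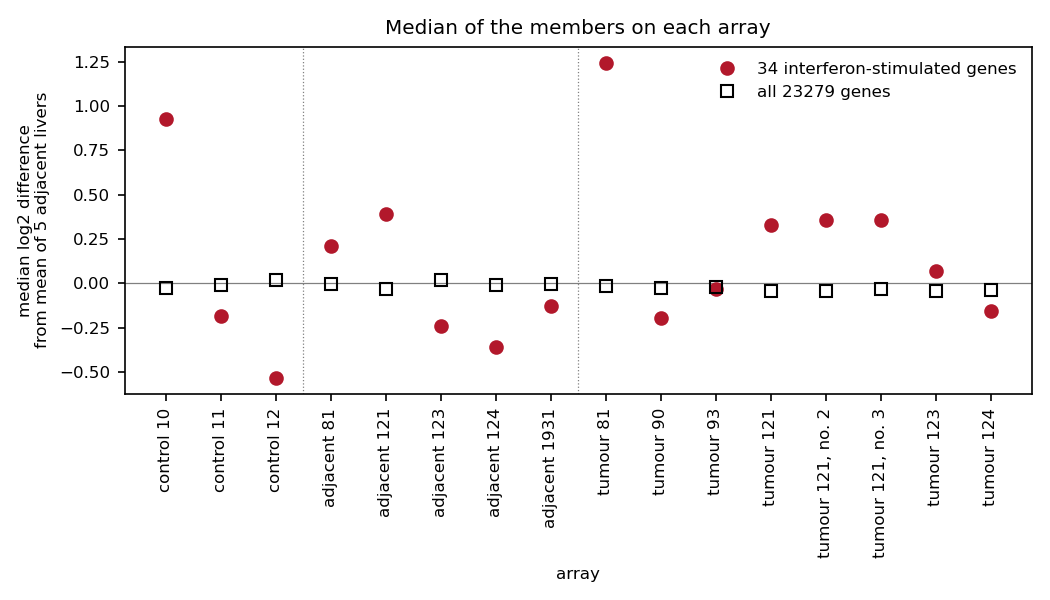
Median log2 difference from the mean of the 5 adjacent livers over the 34 members (filled circles) and over all 23279 genes (open squares) on each array. Tumour 81 at 1.24 and control 10 at 0.93 stand above the other arrays, which lie between -0.53 and 0.39, while the squares stay near 0.

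Each mouse was also set against the mean of the other mice of its group, with a difference of at least 2-fold counted, as a description without a test. Tumour 81 had 21 of 34 members at least 2-fold higher than the mean of the other tumour mice, where 2.49% of all genes were, and 0 at least 2-fold lower, where 2.22% were. The largest of these differences were 9.32-fold for Rsad2, 7.12-fold for Oasl1, 6.66-fold for Isg15 and 5.99-fold for Ifit1. Only Irf9 and Iigp1 of the 34 were not higher in tumour 81 than in the mean of the other tumours. Of the other tumours, 93 had 0 members at least 2-fold higher (1.46% of all genes) and 6 at least 2-fold lower (1.64%), namely Trim30a, Oasl2, Gbp2, Mx1, Oas2 and Rsad2. Tumour 90 had 0 higher (2.17%) and 7 lower (2.85%), which were Oasl1, Irgm1, Mx2, Ifit2, Ifit1, Rtp4 and Isg15. In tumour 124 only Mx1 was at least 2-fold higher (1.34%), and 4 members were lower (1.22%), Usp18, Oas1a, Isg15 and Zbp1. Tumour 123 had 0 higher (1.85%) and 4 lower (1.28%), Mx1, Rsad2, Oasl1 and Bst2, and the mean of mouse 121 had 0 in either direction, where 0.735% of all genes were higher and 0.395% lower. These counts share a reference: tumour 81 is part of the mean against which every other tumour is set.

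Among controls, mouse 10 had 21 members at least 2-fold higher than the mean of the other controls, against 3.12% of all genes, led by Trim30a (8.06-fold), Irf7 (6.97-fold), Oas2 (6.66-fold) and Zbp1 (5.82-fold). It had 0 at least 2-fold lower (0.589%). Controls 11 and 12 had 0 higher (0.528% and 0.468%) and 2 and 13 lower (0.859% and 1.87%). Adjacent liver 121 had 8 (1.63%), which were Trim30a, Gbp2, Gbp3, Zbp1, Irgm1, Oasl2, Oas1a and Rsad2, and adjacent liver 81 had 3 (0.683%), Gbp3, Usp18 and Rtp4. Neither had a member at least 2-fold lower (0.228% and 0.374%). Adjacent livers 123, 124 and 1931 had 0 higher (0.687%, 0.249% and 0.215%) and 4, 2 and 1 lower (0.653%, 0.395% and 0.408%). Some of the genes with the largest differences were shared: Oas2 was 5.69-fold higher in tumour 81 and 6.66-fold in control 10, and Gbp3 5.23-fold and 5.11-fold. Control 10 is part of the mean against which controls 11 and 12 were set.

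The nucleic acid sensors Ifih1 (MDA5) and Ddx58 (RIG-I) detect double-stranded RNA in the cytosol, Dhx58 (LGP2) modulates them, and Zbp1 senses Z-form nucleic acid and can trigger necroptosis. In what follows, control values are given in the order of mice 10, 11 and 12 and adjacent values in the order of mice 81, 121, 123, 124 and 1931, and tumours by their lowest, median and highest of 6 mice. Ifih1 stood at 7.93, 7.33 and 7.05 in controls, at 7.62, 7.78, 7.27, 7.47 and 7.38 in adjacent liver, and at 7.45, 7.58 and 8.11 in tumours. Zbp1 stood at 8.24, 6.26 and 5.14 in controls, at 7.24, 7.90, 6.42, 5.94 and 5.81 in adjacent liver, and at 6.31, 7.04 and 8.40 in tumours. For both genes the high control was mouse 10, the highest adjacent liver mouse 121 and the highest tumour mouse 81, and the ranges of the groups overlapped. The mean of each of the 4 sensors was higher in tumours than in adjacent liver, by 0.07 (Ddx58) to 0.52 (Zbp1, SE 0.53), with adjusted p from 0.612 to 0.920. Without tumour 81, Dhx58 had a lower mean in tumours (-0.02 in place of 0.17), and Zbp1, Ifih1 and Ddx58 differed by 0.27, 0.13 and 0.02.

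Stat2 and Irf9 are subunits of ISGF3, Irf7 amplifies type I interferon production and Irf1 is induced mainly by interferon gamma. Stat2 was among the 9 members with a lower mean in tumours than in adjacent liver. It stood at 7.88, 7.61 and 7.15 in controls, at 7.81, 7.47, 7.48, 7.42 and 7.44 in adjacent liver, and at 6.91, 7.14 and 7.62 in tumours. Tumour 81 held the highest of the tumour values, and the other 5 tumour mice lay below every adjacent liver, with mouse 121 taken as its mean. Its 3 tumours stood singly at 7.44, 7.09 (number 2) and 7.46 (number 3), the first and last of them above adjacent liver 124 (7.42). The means were 7.17 ± 0.27 (SD, n = 6) in tumours and 7.52 ± 0.16 (SD, n = 5) in adjacent liver, a difference of -0.35 (SE 0.16, 95% interval -0.68 to -0.01) with an adjusted p of 0.304, so it was not called. Irf9 was lower by a similar amount, -0.31 (SE 0.18, adjusted p = 0.458). Irf7 varied more: it stood at 8.93, 6.54 and 5.71 in controls, at 7.84, 7.70, 6.91, 6.27 and 6.91 in adjacent liver, and at 6.11, 6.60 and 8.22 in tumours. Control 10 held its highest value on all arrays, and its difference of -0.33 between tumours and adjacent liver had an SE of 0.52. Irf1 differed by 0.05 (SE 0.15). Without tumour 81 the differences were -0.44 for Stat2, -0.31 for Irf9, -0.61 for Irf7 and 0.00 for Irf1.

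Isg15 is a ubiquitin-like protein that is attached to other proteins and also secreted, and Usp18 removes it and damps signalling at the type I receptor. Isg15 stood at 5.74, 4.54 and 4.43 in controls, at 4.88, 4.97, 4.37, 4.21 and 4.52 in adjacent liver, and at 4.02, 4.80 and 7.30 in tumours. Tumour 81 at 7.30 lay above every other array, and the other 5 tumour mice spanned the range of the adjacent livers. Usp18 stood at 6.89, 5.55 and 4.89 in controls, at 7.40, 6.90, 5.96, 5.70 and 6.12 in adjacent liver, and at 4.90, 6.38 and 7.97 in tumours. Tumour 81 was highest and tumour 124 lowest of the tumours, and all 3 groups overlapped. The differences between tumours and adjacent liver were 0.43 for Isg15 (SE 0.47, adjusted p = 0.718) and -0.03 for Usp18 (SE 0.48, adjusted p = 0.987). Without tumour 81 they were -0.02 and -0.34.

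The OAS enzymes make 2′-5′ linked oligoadenylates that activate RNase L. Oasl1 and Oasl2 are related proteins, and mouse Oasl1 is known to restrain translation of Irf7. Oasl1 stood at 6.92, 5.48 and 5.04 in controls, at 5.50, 6.08, 5.49, 5.24 and 6.06 in adjacent liver, and at 4.34, 6.26 and 8.58 in tumours. Tumours 90 and 81 held the lowest and the highest value on all 16 arrays, so the tumour range enclosed both other groups. The 5 genes of this family were higher on average in tumours by 0.16 (Oas2) to 0.54 (Oasl1), with an SE of 0.31 (Oas3) to 0.57 (Oasl1). This rested on tumour 81, without which Oas2 (-0.25) and Oas3 (-0.10) had a lower mean in tumours, and Oasl1, Oasl2 and Oas1a differed by 0.07, 0.03 and 0.24. None was called, and the adjusted p ran from 0.610 to 0.924. In tumour 81, Oas2 was 5.69-fold, Oasl2 5.83-fold and Oas3 3.74-fold above the mean of the other tumours, and Oas1a was 1.58 higher on the log2 scale.

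The IFIT proteins bind viral RNA that lacks the cap methylation of host messages. Ifit1 stood at 6.86, 5.10 and 5.01 in controls, at 6.50, 6.33, 5.10, 6.01 and 5.91 in adjacent liver, and at 5.15, 5.82 and 8.33 in tumours. Ifit3 stood at 7.35, 6.75 and 6.96 in controls, at 7.13, 6.81, 6.42, 6.42 and 6.77 in adjacent liver, and at 6.44, 6.62 and 7.37 in tumours. Tumour 81 and control 10 were the highest arrays for both genes, but Ifit3 differed between them by little (7.37 and 7.35) and the groups overlapped. Ifit2 was higher in tumours by 0.78 (SE 0.41, adjusted p = 0.391), and by 0.46 without tumour 81. Ifit1 differed by 0.21 (SE 0.51) and Ifit3 by 0.00 (SE 0.18), and by -0.22 and -0.13 without tumour 81.

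Mx1 and Mx2 are dynamin-like GTPases that trap viral nucleocapsids, and RefSeq lists both as transcribed pseudogenes in its reference strain, so these values are of transcripts only. Mx1 stood at 3.77, 2.87 and 2.86 in controls, at 3.12, 3.31, 2.81, 2.75 and 2.65 in adjacent liver, and at 3.04, 3.27 and 6.01 in tumours. Tumour 81 (6.01) and tumour 124 (5.16) were apart from the other tumours, which lay between 3.04 and 3.29 and overlapped the adjacent livers. On all other arrays Mx1 lay below the median of all values (4.43), so it is a dim gene outside those tumours. The difference of 1.04 (SE 0.48, 95% interval 0.01 to 2.07) was not called (adjusted p = 0.321) and was 0.63 without tumour 81. Mx2 stood at 6.60, 5.80 and 5.18 in controls, at 5.68, 5.71, 5.41, 5.56 and 5.43 in adjacent liver, and at 4.11, 5.33 and 7.13 in tumours. The adjacent livers lay close together (SD 0.14, n = 5) and the tumours far apart (SD 1.01, n = 6), with tumour 90 lowest and tumour 81 highest, and the means differed by -0.13 (SE 0.40), or -0.48 without tumour 81.

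Of the other effectors, Rsad2 (viperin) makes a chain-terminating nucleotide, Eif2ak2 (PKR) halts translation when it binds double-stranded RNA, Bst2 (tetherin) holds virions at the cell surface and Ifitm3 blocks fusion in endosomes. Of the 34 members, Rsad2 had the largest difference between tumours and adjacent liver over all mice. It stood at 6.89, 5.16 and 4.99 in controls, at 5.66, 6.58, 5.40, 5.33 and 5.71 in adjacent liver, and at 6.02, 6.31 and 9.58 in tumours. The 6 tumour mice lay above 4 of the 5 adjacent livers and overlapped only adjacent liver 121, and control 10 lay above 4 of the 6 tumour mice. The means were 6.89 ± 1.38 (SD, n = 6) and 5.73 ± 0.50 (SD, n = 5), a difference of 1.16 (SE 0.57, 95% interval -0.06 to 2.38, adjusted p = 0.353), which was 0.62 without tumour 81.

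Ifitm3 varied little: it stood at 11.50, 11.13 and 10.86 in controls, at 11.23, 11.23, 11.22, 11.10 and 11.06 in adjacent liver, and at 10.64, 11.22 and 11.32 in tumours. Only tumour 124 (10.64) lay clearly below the rest, and the groups overlapped. The difference was -0.03 (SE 0.13, adjusted p = 0.942). In this group, 7 members, Eif2ak2, Rsad2, Bst2, Xaf1, Parp14, Trim30a and Lgals3bp, had a higher mean in tumours than in adjacent liver, by 0.08 (Parp14) to 1.16, and Ifitm3, Ifi35 and Rtp4 a lower one, by as much as -0.26 (Rtp4). Lgals3bp, a secreted glycoprotein, was higher by 0.36 (SE 0.28, adjusted p = 0.588), and by 0.25 without tumour 81. Without that tumour Trim30a differed by 0.25 in place of 0.51, Xaf1 by 0.07 in place of 0.28, Bst2 by 0.02 in place of 0.18, Parp14 by 0.00 and Rtp4 by -0.48.

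The GTPases Gbp2, Gbp3, Iigp1 and Irgm1 respond strongly to interferon gamma and attack the vacuoles of intracellular pathogens. Iigp1 stood at 10.06, 9.53 and 9.30 in controls, at 9.80, 10.63, 9.87, 9.46 and 9.56 in adjacent liver, and at 9.52, 9.99 and 10.40 in tumours. It was the only member of the 34 with its lowest tumour value in mouse 81, and adjacent liver 121 held the highest value of all arrays. Gbp3 stood at 7.06, 5.23 and 4.19 in controls, at 6.78, 7.18, 4.51, 5.01 and 4.96 in adjacent liver, and at 5.25, 5.78 and 8.06 in tumours. Tumour 81 was highest, adjacent livers 121 and 81 stood above the other 3, and the groups overlapped. Between tumours and adjacent liver, Gbp2 differed by 0.42 (SE 0.48) and Gbp3 by 0.38 (SE 0.63), and without tumour 81 by 0.05 and -0.02. Iigp1 differed by 0.09 and Irgm1 by -0.02, and without it by 0.17 and -0.25. These GTPases had a median of 1.26 above the adjacent mean in adjacent liver 121, against 0.42 for the OAS family and 0.35 for the IFIT family on the same array.

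The fit over all genes put numbers on these overlaps. Between tumours and adjacent liver, 0 of 34 members were called, where 0.155% of all genes were. At an unadjusted p under 0.05, Mx1 was higher (6.95% of all genes) and Stat2 lower (8.32%), and 0 members had groups that did not overlap (2.23%). The members' median difference was 0.18, with 25 of 34 higher, beside -0.03 and 44.0% over all genes. Without tumour 81 the median was 0.00 with 18 higher, since 7 members (Isg15, Ifit1, Ifit3, Oas2, Oas3, Dhx58 and Gbp3) then had a lower mean in tumours. Over the other alternatives that left out 1 mouse, the count ran from 20 to 28.

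**Figure D3:**
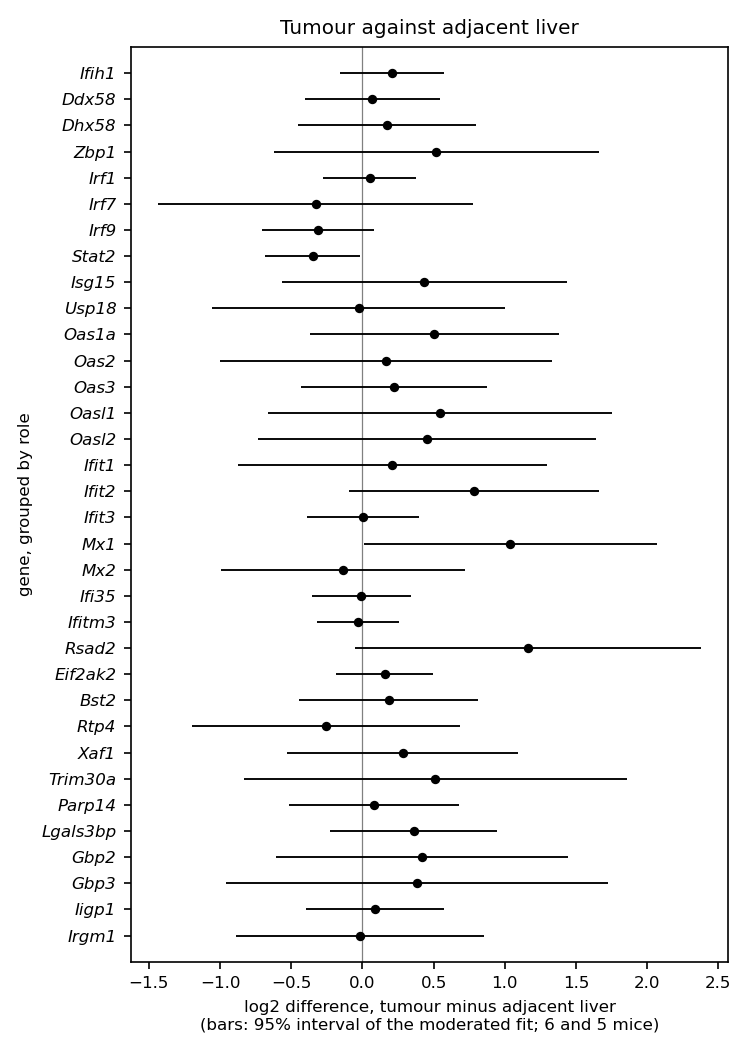
Log2 difference between tumours (6 mice) and adjacent liver (5 mice) for each of the 34 members, grouped by role; points are differences of group means and bars are 95% intervals of the moderated fit. Only the intervals of Mx1 and Stat2 leave 0 out, on opposite sides, and neither gene was called after adjustment over all genes.

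Between adjacent and control liver, 0 members were called (0% of all genes), 0 had an unadjusted p under 0.05 (4.55%) and 0 had groups that did not overlap (4.22%). The median difference was -0.01, with 17 of 34 members higher in adjacent liver (48.5% of all genes), from -0.43 (Ifit2) to 0.64 (Usp18). This split rested on single animals: 31 members were higher without control 10, 9 without control 11, 3 without control 12, 8 without adjacent liver 121 and 10 without adjacent liver 81. The median without control 10 was 0.38. Between tumours and controls, 0 members were called (0.0258%), 0 had an unadjusted p under 0.05 (12.5%) and 0 had groups that did not overlap (5.18%). The median was 0.13, with 23 higher (42.2% of all genes), from -0.44 (Mx2) to 1.22 (Rsad2, SE 0.67, adjusted p = 0.475). Without control 10 the median was 0.56 with 31 higher, and without control 12 there were 12 higher. The comparisons share groups, so they are not separate lines of evidence.

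In all, 4 mice (121, 124, 123 and 81) gave both tumour and adjacent liver, which allows a difference within each animal. The median over members of tumour minus own adjacent liver was -0.10 in mouse 121, 0.16 in mouse 124, 0.27 in mouse 123 and 0.83 in mouse 81. In the same order, 11, 24, 26 and 28 of 34 members were higher, beside 49.9%, 47.8%, 43.0% and 47.85% of all genes. At least 2-fold higher in the tumour were 1 member in mouse 121 (0.997% of all genes), 4 in mouse 124 (1.89%), 3 in mouse 123 (5.26%) and 16 in mouse 81 (4.35%). The difference was thus largest in mouse 81 and on balance below 0 in mouse 121, whose tumours and adjacent liver both stood above the adjacent mean. Rsad2 differed by 0.55, 1.13, 0.62 and 3.92 in mice 121, 124, 123 and 81, and Mx1 by -0.06, 2.41, 0.23 and 2.88. Of the 34 members, 6 were higher in the tumour of all 4 mice (9.97% of all genes): Rsad2, Ifit2, Ifih1, Dhx58, Bst2 and Lgals3bp. Irf9 and Stat2 were lower in all 4 (13.0%), Stat2 by 0.14 to 0.51 and Irf9 by 0.17 to 0.51.

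**Figure D4:**
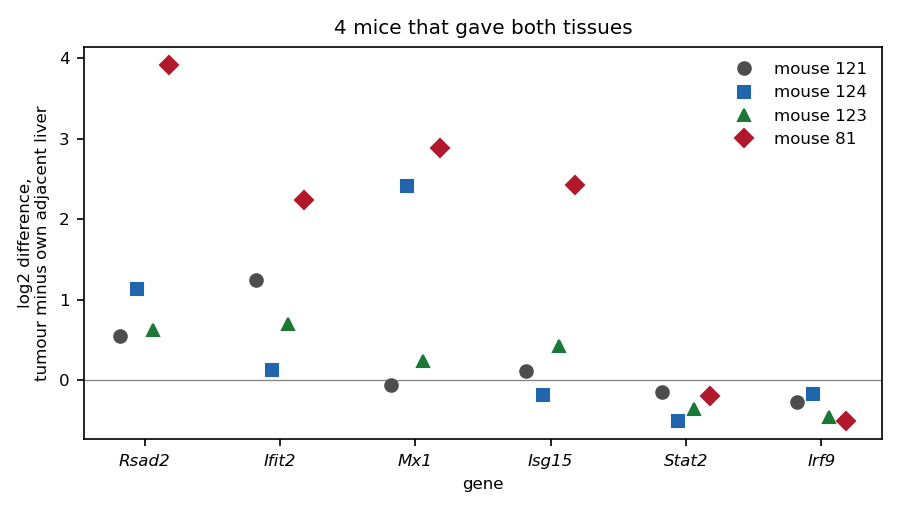
Log2 difference between the tumour and the adjacent liver of the same animal for 6 members in the 4 mice that gave both tissues; mouse 121 is the mean of its 3 tumours. Mouse 81 is highest for Rsad2, Ifit2, Mx1 and Isg15 (3.92, 2.25, 2.88 and 2.42), and all 4 mice lie below 0 for Stat2 and Irf9.

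With tumour 81 included, tumours of different mice spread more than adjacent livers. The SD between tumour mice exceeded that between adjacent livers in 25 of 34 members, beside 57.9% of all genes, with median SDs of 0.79 and 0.41. Without tumour 81 this held for 13 members, beside 53.1% of all genes, and the median tumour SD was 0.43. The median ratio of tumour to adjacent SD was then 0.94 over the members and 1.06 over all genes. The controls, which include mouse 10, spread more than the adjacent livers in 31 members (53.7% of all genes). The SD of the 3 tumours of mouse 121 had a median of 0.23. It exceeded that between tumour mice in 2 members (39.3% of all genes), and in 11 (43.4%) when tumour 81 was left out of the latter. Across the 14 values of mouse and tissue, 28 of the 34 members correlated at 0.7 or more with the mean of the other members (median r 0.84), as did 1.41% of other genes. Iigp1 (0.29), Irf9 (0.43), Ifitm3 (0.49) and Stat2 (0.56) followed the others least. Without tumour 81 and control 10, 17 members reached 0.7 and the median r was 0.71 over 12 values. These correlations describe arrays that share normalization and tissue makeup.

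Of 40 other genes of the pathway, 37 were measured: 8 ligands, 6 receptors, 4 kinases and STATs, 12 genes of interferon induction and 7 brakes. None was called by limma in any comparison. At an unadjusted p under 0.05 there were 5 of 37 higher (6.95% of all genes) and 2 lower (8.32%) between tumours and adjacent liver, 2 in either direction between adjacent and control liver (4.55%) and 1 between tumours and controls (12.5%). The lowest adjusted p between tumours and adjacent liver was 0.111, for the interferon gamma receptor chain Ifngr2. The ligands Ifnb1 (2.15 to 2.74 over all arrays) and Ifng (2.95 to 3.79) varied little, and tumour 81 held 2.57 and 3.05. Both stood below the median of all values (4.43) on every array, where a flat value cannot show whether a ligand varied. Ifna4 differed between tumours and adjacent liver by 0.15 (SE 0.13) and Ifna5 by 0.16 (SE 0.16). Ifnar1 and Ifnar2, the type I receptor, differed by 0.11 (SE 0.11) and 0.07 (SE 0.13), Jak1 by 0.01 (SE 0.13) and Jak2 by 0.22 (SE 0.19). The endosomal RNA sensors Tlr3 and Tlr7 differed by 0.14 (SE 0.23) and 0.32 (SE 0.34), and the feedback inhibitors Socs1 and Socs3 by 0.16 (SE 0.16) and -0.09 (SE 0.23).

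Of the 5 pathway genes that were higher in tumours than in adjacent liver before adjustment, 4 were receptor chains: Ifngr1 by 1.10 (SE 0.37), Ifngr2 by 0.76 (SE 0.21), Il10rb by 0.94 (SE 0.28) and Ifnlr1 by 0.50 (SE 0.17), with Ifnl2 by 0.37 (SE 0.14). The transcription factors Irf3, by -0.27 (SE 0.12), and Irf2, by -0.36 (SE 0.14), were lower before adjustment. Ifngr1 was highest in tumour 90 (9.24) and reached 7.21 in tumour 81, so its highest value was in the tumour with the lowest median of the members.

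Markers of other cell types were set beside the arrays that stood apart. In control 10 the mean of 7 Kupffer cell and macrophage markers was 8.60, against 5.55 to 6.38 in the other controls, and the mean of 7 neutrophil markers was 6.33, against 3.36 to 3.64. S100a8 stood at 8.71 and Vsig4, a marker of resident macrophages, at 10.12 there. All 7 macrophage markers and 6 of the 7 neutrophil markers were higher in control 10 than in both other controls. Ly6g (2.99) was not, and Cxcr2 (4.22) lay close to its value in control 11 (4.16). In tumour 81 the macrophage mean was 5.30, within the 4.99 to 6.09 of the other tumours: Cd68 at 9.24 was the highest of all arrays, whereas the Kupffer cell markers Vsig4 at 2.86 and Clec4f at 4.36 were low. The neutrophil mean there was 3.84 and the plasmacytoid dendritic cell mean 4.84, both within the range of the other tumours. The conventional dendritic cell mean of 4.33 lay above the 3.82 to 3.97 of the other tumours, with Itgax at 5.65 the highest of all arrays. Of the 5 markers of that list, 3 were higher than in every other tumour mouse, but Clec9a (5.39) and Cd209a (3.13) were not. Besides Itgax these were Flt3 (3.77, tumour 124 at 3.69) and Xcr1 (3.71, tumour 90 at 3.60). Both differed by little and lay below the median of all values (4.43). The B and plasma cell mean of 3.998 lay above the 3.44 to 3.73 of the other tumours. Jchain (4.13) of that list was not higher than in tumour 123 (4.46). Jchain, Cd79a (3.20) and Ms4a1 (2.84) lay below 4.43 in tumour 81. The T cell mean of 4.46 lay within their range, although 4 of 7 T cell markers were higher than in every other tumour mouse. The hepatocyte mean of 11.07 was the lowest of the tumours, although Tat (11.40) of that list was higher than in every other tumour mouse. The endothelial mean of 5.91 was also the lowest of the tumours, with the sinusoidal markers Stab2 at 4.61 and Clec4g at 3.98. The general endothelial markers Pecam1 (7.34) and Cdh5 (8.30) of the same list stood above every adjacent liver. Tumour 90, in which the members were low, had similarly low Vsig4 (3.36), Clec4f (4.17), Stab2 (5.17) and Clec4g (4.08). Adjacent liver 121 had the highest mean of the adjacent livers in all 10 marker lists other than that of hepatocytes, among them T cells (5.06, the lowest 3.85), macrophages (6.93, the lowest 5.75), NK cells (5.34, the lowest 4.34) and stellate cells (6.68, the lowest 5.51). The part of these cell markers in the values of the members was not tested.

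**Figure D5:**
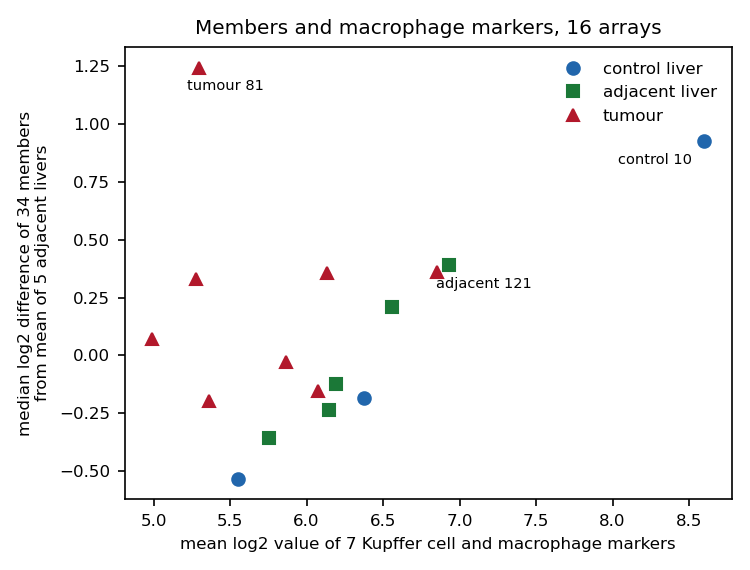
Median log2 difference of the 34 members from the mean of the 5 adjacent livers (vertical axis) against the mean log2 value of 7 Kupffer cell and macrophage markers (horizontal axis) on the 16 arrays. Control 10 is high on both axes (8.60 and 0.93), while tumour 81 is high on the vertical axis (1.24) at a marker mean of 5.30.

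Members with and without ISRE letters overlapped in how high they stood in tumour 81. The 16 members with ISRE letters in the window were a median of 1.47 above the mean of the other tumours, from 0.10 to 3.22, and the 9 matched members without them a median of 1.27, from -0.01 to 2.83. Oasl1, at 2.83, had no such letters in its window, and Ifitm3, at 0.10, had 2 matches. Stat2, printed above with its upstream match, was higher by 0.53 in tumour 81, although its tumour mean was below that of adjacent liver.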

How the data were processed

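Per the labels' protocols, RNA was extracted with Trizol, amplified by a NuGEN whole-transcriptome kit, labelled with biotin and hybridised to 1-colour arrays. The values the authors deposited are on the log2 scale. The submitters' processing notes name RMA and Partek, with no version. Chip model, probe positions and genome build: not given in the sources used here. RMA equalises the arrays, so a shift shared by all genes is removed. Of 24479 probe sets, 23281 had 1 gene symbol, which gave 23279 genes.

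Groups came from the sample titles, which number the animals, so the spread behind a p-value is that of animals. Adjacent liver 1931 and tumour 93 were treated as different animals, which the titles leave unknown. limma 3.58.1 (R 4.3.3) was run with an intensity trend on 3 controls, 5 adjacent livers and 6 tumour mice, and checked on simulated data. No depth exists for arrays, whose number limits the precision. No batch label was given.

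Full values are printed for the member with the highest mean and the member with the largest range over all arrays in each role group, and for any called member. Of the other pathway genes, the first 2 present of each role are named. Pathway genes with an unadjusted p under 0.05 and the cell markers singled out were chosen after their values were seen. The members and lists were chosen with earlier results of these data known, and that tumour 81 and control 10 stand apart was known too.

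The titles pair tumour and adjacent liver in 4 mice, which are the same animals. Deviations from the group means correlated at 0.0349 to 0.0998 in these pairs and at -0.328 to 0.317 in other pairs. Alternatives were 25 planned settings (normalization, filter, trend, array weights, replicate block, handling of mouse 121, leaving out each mouse) and 1 added after the data were seen, which left out both control 10 and tumour 81.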

Additional observations from a re-analysis of the deposited data

Results flagged for a closer look

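Of 68 groups of member values (34 genes in adjacent livers and in tumours), 11 had an extreme value farther from its nearest neighbour than Dixon's 95% limit allows, where chance flags about 1 in 20 groups, or 3.4. The members vary together on the same arrays and tumour 81 was already known to stand apart, so the count is a description and no test. In 7 of the 11 the value was that of tumour 81: Rsad2 at 9.58, Gbp3 at 8.06, Oas2 at 7.79, Ifit3 at 7.37, Isg15 at 7.30, Dhx58 at 6.88 and Oas3 at 6.01, each the highest of 6 tumour mice. Ifitm3 was the lowest of the tumours in mouse 124, at 10.64, and Ddx58 in mouse 90, at 6.51. Among adjacent livers, Stat2 was highest in mouse 81, at 7.81, and Irf9 lowest in mouse 124, at 6.33. Groups of 3 were not tested, so control 10 could not be listed.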

How the results depend on the processing

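In all 26 alternatives 0 of the 34 members were called in any comparison, and all 2581 member values moved by less than the spread between mice. Leaving out 1 mouse can hardly move a group mean by more than that spread. For those settings the count therefore does not measure stability. Of the 2581 values, 206 uncalled ones in 33 members changed sign. The lowest adjusted p of a member in any setting was 0.153 (Rsad2, tumour against control, with control 10 and tumour 81 left out). Neither replicate block changed a member's call: 0 were called with mouse as a random term (206 over all genes, 36 without it), and 0 with mouse as a fixed term in the 4 paired mice (0 over all genes). Members higher in adjacent liver than in control numbered 17, from 3 to 31 when 1 mouse was left out and 31 without control 10 and tumour 81. Members higher in tumours than in controls numbered 23, from 12 to 31 when 1 mouse was left out. Calls over all genes, 36 between tumours and adjacent liver, 0 between adjacent and control liver and 6 between tumours and controls, ran from 0 to 743, from 0 to 1 and from 0 to 242. Dim probe sets limit small differences: 33 members passed the filter on dim genes, and Mx1 did not.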

Other observations

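Genes outside the list were ranked by their correlation with the mean of the members over the 14 values of mouse and tissue, a choice made after the values were seen. Symbols of the Gm, Rik and LOC kinds, or with long runs of digits, were left out of the ranking. The highest of the rest were Rnf213 (0.95), Ifi211 (0.94), Oas1g (0.93), Trim25 (0.92), Epsti1 (0.92), Samhd1 (0.91), Herc6 (0.91), Traj38 (0.90), Ddx60 (0.90) and Sdcbp2 (0.90). Traj38 is dim, at 2.15 to 3.05, below the median of all values (4.43). Trim25 is a ubiquitin ligase that activates Ddx58, Samhd1 degrades deoxynucleotides and Ddx60 is a helicase. Without tumour 81 and control 10 these 10 genes correlated at 0.79 (Sdcbp2) to 0.90 (Ddx60) over 12 values. Oas1g stood at 7.32 in tumour 81 and 7.35 in control 10, and at 2.54 in adjacent liver 123. It is a near copy of Oas1a, and probes may be shared. The arrays share normalization and tissue makeup, so these correlations are given as a description.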
